A study of Mus musculus with 9 samples.

Results

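This account covers the genes of the cell cycle and DNA replication machinery, chosen by symbol. A gene belonged to the set when its symbol began with Mcm, Ccna, Ccnb, Ccnd, Ccne, Cdk, Cdkn, Cdc, Orc, Gins or E2f followed by a digit, began with Cenp followed by a letter, named a catalytic or accessory subunit of DNA polymerase alpha, delta or epsilon, or was Pcna, Mki67 or Top2a. The rule found 141 genes among the 24505 listed, and 138 of them reached a value of 10 on the linear scale in at least 2 libraries and were tested, out of 16563 tested genes in all. Ccna1, Ccnb1ip1 and Cdk5r2 were listed at low values and were not tested. Since the rule reads only letters, 46 of the 141 genes have other main roles, such as Cdc42 and its effectors, and they are described apart from the 95 genes that were sorted into 8 cell cycle role groups.

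The study used organoids (mini-guts) grown from mouse duodenum in 3 culture conditions, named here as the labels name them because the labels do not spell the names out. RANKL cultures were labelled as intestinal M cells, the antigen-sampling cells of the gut lining, ENRI cultures as enterocytes, the absorptive cells, and WENRC cultures as intestinal stem cells. Transcription was measured by global run-on sequencing (GRO-seq), which labels and sequences the RNA that polymerases extend in isolated nuclei, in 2 libraries of each culture. ChIP-seq of H3K27me3, the repressive histone mark written by Polycomb repressive complex 2, was made in 2 RANKL libraries, which the authors pooled, and 1 WENRC library. The ENRI and WENRC GRO-seq libraries came from the same 2 mice, numbered 1 and 2, whereas the RANKL libraries carry only a replicate number. Per the file header, the ENRI and WENRC libraries of one mouse also share a date, so that mouse and date cannot be told apart. The labels used here give no strain, sex, age or genotype, and no treatment beyond the culture name. A culture is a mixture of cells, so fewer cells of a type and less transcription per cell cannot be told apart in any value below.

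Replication begins at origins bound by the origin recognition complex (Orc), where Cdc6 helps to load the Mcm2 to Mcm7 helicase in G1. Cyclin-dependent kinases and Cdc7 then fire the origins with Cdc45 and the Gins complex, and the polymerases copy the strands on the sliding clamp Pcna. Progress through the cycle is driven by cyclins bound to kinases, braked by the Cdkn inhibitors, and read out as gene expression through the E2F factors. In the intestinal lining division is confined to the crypt, where stem and progenitor cells cycle, and enterocytes on the villus have left the cycle.

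The promoters of cell cycle genes carry short sequence words that earlier work ties to E2F factors (TTTGGCGC, TTTCCCGC or TTTGCCGC, active around S phase), to the cell cycle homology region CHR (TTTGAA, G2 and mitosis) and to the factor NF-Y (CCAAT). The 150 bases before the RefSeq start site (assembly GRCm38.p6) are shown for genes whose values are described below and which differ in these words. Capitals mark every match to any of the words on either strand, read 5′ to 3′ along the gene. Mcm5 lies at chr8:75109359-75109508 (plus strand), Mcm6 at chr1:128359706-128359855, Pola1 at chrX:93632156-93632305, Cdk1 at chr10:69352913-69353062, Top2a at chr11:99024190-99024339, Mki67 at chr7:135716380-135716529 and Pcna at chr2:132253181-132253330 (all minus strand).
Mcm5: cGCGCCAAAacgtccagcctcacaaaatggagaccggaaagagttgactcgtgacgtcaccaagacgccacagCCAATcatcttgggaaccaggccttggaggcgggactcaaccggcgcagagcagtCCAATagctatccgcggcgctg
Mcm6: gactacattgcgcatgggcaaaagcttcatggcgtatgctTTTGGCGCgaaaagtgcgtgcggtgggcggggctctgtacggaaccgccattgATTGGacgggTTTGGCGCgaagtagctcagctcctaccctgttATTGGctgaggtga
Pola1: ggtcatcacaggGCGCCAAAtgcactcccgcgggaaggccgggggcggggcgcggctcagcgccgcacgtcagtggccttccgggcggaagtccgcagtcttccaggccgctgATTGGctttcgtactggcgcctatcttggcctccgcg
Cdk1: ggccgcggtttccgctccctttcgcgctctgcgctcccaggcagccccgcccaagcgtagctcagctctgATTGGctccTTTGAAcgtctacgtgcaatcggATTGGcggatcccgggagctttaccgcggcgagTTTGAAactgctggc
Top2a: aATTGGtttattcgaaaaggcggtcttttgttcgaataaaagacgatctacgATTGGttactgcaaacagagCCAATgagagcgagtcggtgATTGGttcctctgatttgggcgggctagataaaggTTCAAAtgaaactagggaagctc
Mki67: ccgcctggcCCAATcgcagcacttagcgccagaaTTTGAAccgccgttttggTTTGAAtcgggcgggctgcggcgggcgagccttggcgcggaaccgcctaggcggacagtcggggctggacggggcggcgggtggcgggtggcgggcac
Pcna: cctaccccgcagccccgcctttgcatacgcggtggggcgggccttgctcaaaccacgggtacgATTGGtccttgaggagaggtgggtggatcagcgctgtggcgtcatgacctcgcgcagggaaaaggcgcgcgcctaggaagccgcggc

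The replication genes Mcm5, Mcm6 and Pola1 held an E2F word in this stretch, the mitotic genes Cdk1 and Top2a and the proliferation marker Mki67 held CHR words, and Pcna held neither. RefSeq promoter windows of 300 bases (250 before to 50 after the start) were found for 121 of the 141 members, as 145 windows. At least 1 of the 3 E2F words stood in 23% of the 100 windows of the role groups, in 2.22% of the 45 windows of the genes matched only by name, and in 1.99% of all 32851 windows. By group the share was 42.9% of 14 windows for the polymerases, clamp and proliferation markers and 37.5% of 8 for the E2F genes themselves. It was 34.8% of 23 for licensing and helicase genes, 18.2% of 11 for kinases and phosphatases and 13% of 23 for centromere proteins. Kinase inhibitors had 10% of 10 and the anaphase promoting complex, described below, 0% of 4. Cyclins had 0% of 7, and only 6 of the 10 cyclin genes had a window. CCAAT stood in 61.0% of the role-group windows against 37.4% of all windows, and the CHR word in 23% against 17.9%. By group the CHR share ran from 14.3% of 7 windows for cyclins to 37.5% of 8 for the E2F genes. It was 21.7% of 23 for licensing and helicase genes and also 21.7% of 23 for centromere proteins. The promoters shown above thus do not stand for their groups in the CHR word. The words were searched separately on both strands, so that matches of different words may overlap. A match is a run of letters and not a measured binding site.

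GRO-seq values are the authors' normalized log2 values, summed over whole genes, and a difference of 1 is a doubling. Their depth is unknown, and the values of weakly transcribed genes lie close together, which understates the changes of such genes. Replicates of RANKL lay closest together: the SD of the difference between the 2 libraries over all tested genes was 0.22 for RANKL, 0.42 for WENRC and 0.70 for ENRI. Stem cell markers (7 of 7 tested) summed to 12.18 to 12.75 (log2) in ENRI, 14.35 to 14.48 in WENRC and 14.14 to 14.21 in RANKL, enterocyte markers (8 of 8 tested) to 15.53 to 16.33, 11.37 to 12.75 and 14.49 to 14.64, and M cell markers (8 of 8 tested) to 9.87 to 10.69, 10.77 to 10.79 and 13.32 to 13.40, with no marker of these lists at 0. Each summed list was highest in the culture labelled with its cell type, but single stem cell markers differed: Tnfrsf19 was higher in RANKL than in WENRC (1.69, FDR 0.0129), and Lgr5 lower (-3.02, FDR 0.00166). Mesenchymal markers passed the filter in 0 of 5 cases and leukocyte markers in 2 of 5.

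Across the role groups ENRI had the lowest level of the 3 cultures in 73 of 94 genes (77.7%, against 34.7% of all tested genes) and WENRC the highest in 62 (66.0%, against 31.0%). The median deviation of the 94 genes from their own 6-library mean was 0.36 and 0.23 in the WENRC libraries of mouse 1 and mouse 2, 0.04 and 0.05 in the RANKL libraries, and -0.15 and -0.53 in the ENRI libraries of mouse 1 and mouse 2 (log2). The lowest single library was ENRI of mouse 2 for 70 of the 94 genes (74.5%), a place it took for 31.0% of all tested genes. The heat map of the 94 genes shows these columns.

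**Figure D1:**
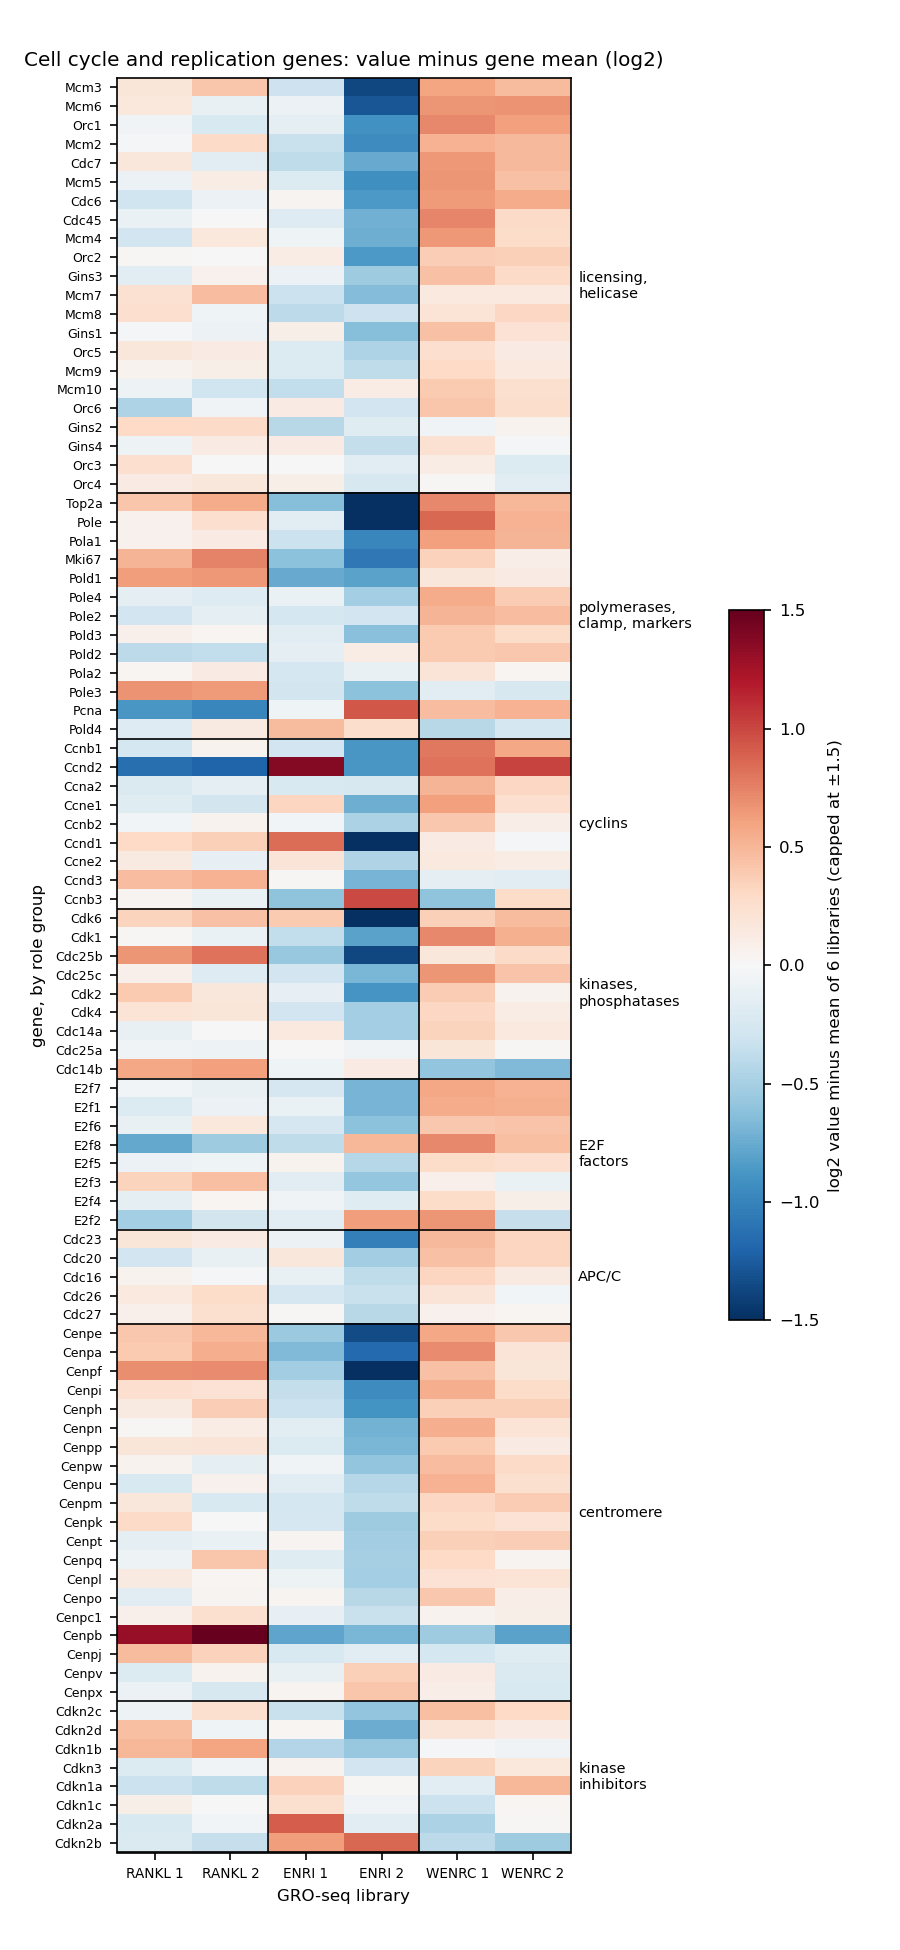
Heat map of the 94 tested genes of the 8 role groups (rows, by role group and ordered by their WENRC minus ENRI change) in the 6 GRO-seq libraries (columns). Colour gives the log2 value minus the gene's mean over the 6 libraries, capped at ±1.5. Most rows are blue in ENRI 2 and red in both WENRC libraries, while Pcna and Cdkn2b are red in ENRI 2.

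Between WENRC and ENRI, 24 of the 138 tested members rose and 6 fell at an FDR under 0.05 (limma, Benjamini-Hochberg over all tested genes, used for every FDR below). That is 21.7% of the members, beside 14.6% of all tested genes. By direction, higher calls made up 4.85% of all tested genes and lower calls 9.74%. Under upper-quartile recentring the members gave 44 higher and 5 lower (all tested genes 9.94% and 8.43%), and under quantile normalization 37 and 6 (9.87% and 9.2%). Of the 24 that rose, 22 were among the 94 role-group genes, whose median change was 0.61 against -0.01 for all tested genes. In 70 of these 94 genes (74.5%) both WENRC libraries lay above both ENRI libraries, which was so for 29.3% of all tested genes, and in 3 both lay below (29.2% of all tested genes). Within each mouse the change was upward in both mice for 73 of the 94 genes (77.7%, against 36.3% of all tested genes), with a median of 0.51 in mouse 1 and 0.75 in mouse 2. The genes matched only by name did not share this: 2 of 44 rose, 4 fell and their median change was -0.12. Between WENRC and ENRI 6 of 7 stem cell markers, 1 of 8 M cell and 1 of 4 Paneth cell markers were higher, and 7 of 8 enterocyte and 3 of 5 goblet cell markers lower, and their part in the result was not tested.

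The calls between WENRC and ENRI rested on the spread shared with the RANKL libraries. A limma fit to the 4 ENRI and WENRC libraries alone called 0 members and 0% of all tested genes. It had 46 members higher and 10 lower at an unadjusted p under 0.05, and the FDRs of the 30 members above then ran from 0.0565 to 0.127. The same 4 libraries with the mouse as a block also gave 0 calls (0.749% of all tested genes), with 47 members higher and 9 lower unadjusted. The block in the 6-library fit gave 20 (9.09% of all tested genes), all among the 30. The 10 calls lost with the block were Mcm2, Mcm3, Mcm5, Pole2, Ccna2, Cdc25b, Cdc14b, E2f6, Cenph and Cdc42ep2, whose FDRs were then between 0.0509 (Pole2) and 0.0762 (Ccna2). By the authors' deposited table, 24 of the 30 had an adjusted p under 0.05 in the same direction, where 12.5% of all tested genes passed. Without ENRI of mouse 1, where the lone ENRI library is assumed to vary like those of the other cultures, the members called were 84, against 40.1% of all tested genes, and without any single RANKL or WENRC library they were 0, with 39 to 56 members at an unadjusted p under 0.05.

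**Figure D2:**
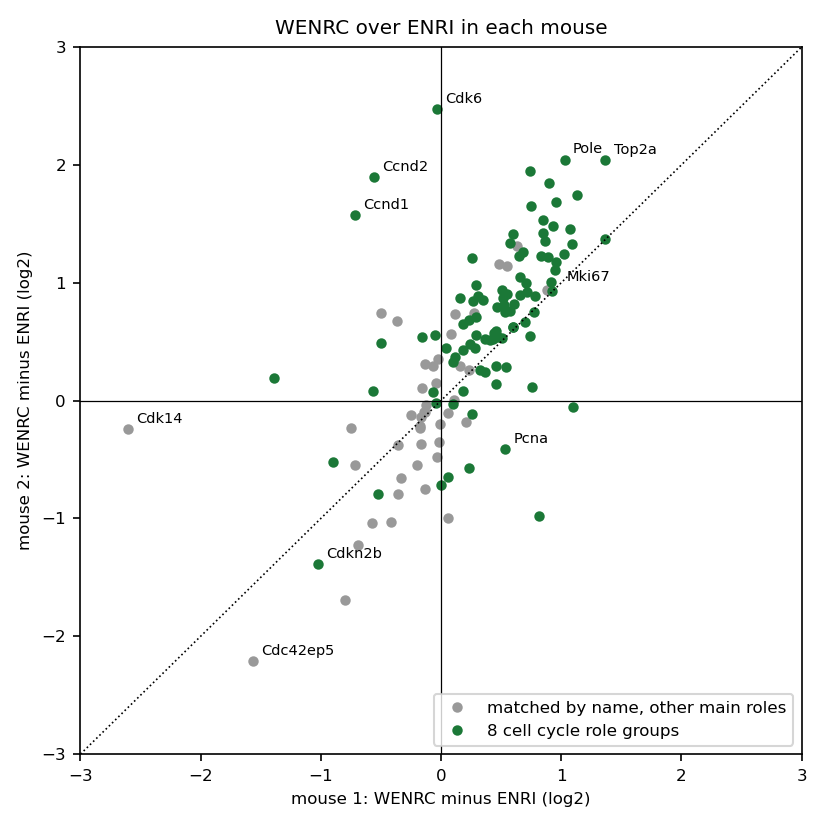
Change from ENRI to WENRC (log2) of each tested member in mouse 1 (horizontal axis) and mouse 2 (vertical axis); green points are the 94 role-group genes and grey points the 44 genes matched by name, and the dotted line marks equal change. Most green points lie right of and above 0 (73 of 94), and Ccnd1, Ccnd2 and Cdk6 stand apart, at or below 0 in mouse 1 and above 1.5 in mouse 2.

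Between RANKL and ENRI, 19 members rose and 4 fell, 16.7% of the 138, beside 20.9% of all tested genes (10.4% higher and 10.5% lower). The role groups held 15 of the rises and 2 of the falls, with a median change of 0.39 against -0.00 for all tested genes. Both RANKL libraries lay above both ENRI libraries in 51 of the 94 (54.3%, against 32.4% of all tested genes) and below them in 9 (9.57%, against 32.3%). In the same comparison 8 of 8 M cell, 4 of 7 stem cell, 2 of 4 Paneth cell, 1 of 5 goblet cell, 1 of 4 enteroendocrine and 1 of 4 tuft cell markers were higher and 4 of 8 enterocyte markers lower, and their part was not tested. The RANKL libraries are combined reads of a repeat sequencing according to the file header, so that sequencing run and culture cannot be told apart in either RANKL comparison. A fit to the 4 libraries alone called 14 members (11.6% of all tested genes), and without RANKL replicate 1 or 2 the calls were 2 and 0 (0.67% and 0.386% of all tested genes), with 25 and 24 members at an unadjusted p under 0.05. Without either WENRC library they were 14 (11.6%), and without ENRI of mouse 1 they were 71 (42.1% of all tested genes). By the authors' deposited table, 16 members were higher and 5 lower, where 19.6% of all tested genes passed.

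Between RANKL and WENRC, 6 members rose and 3 fell, 6.52% of the 138, beside 12.1% of all tested genes (8.53% higher and 3.62% lower). Under upper-quartile recentring of the libraries the split was 4 higher and 9 lower (2.9% and 6.52% of the members, 7.52% and 6.59% of all tested genes). Under quantile normalization it was 5 and 4 (all tested genes 7.68% and 5.4%). Recentring moved the median of all tested genes from -0.01 to -0.12. In the role groups the median change was -0.22, and both RANKL libraries lay below both WENRC libraries in 51 of 94 genes (54.3%, against 34.5% of all tested genes) and above them in 18 (19.1%, against 34.1%). In this comparison 7 of 8 M cell, 4 of 8 enterocyte, 2 of 5 goblet cell, 2 of 4 Paneth cell, 1 of 4 enteroendocrine and 1 of 4 tuft cell markers were higher, and of 7 stem cell markers 1 was higher and 1 lower, and their part was not tested. The fit to the 4 libraries alone called 46 members (21 higher, 25 lower), when 31.4% of all tested genes were called, and 40 (19 higher, 21 lower) passed in the authors' deposited table, when 27.8% of all tested genes did. Without either ENRI library the calls were 45 and 46 (31.1% and 31.3% of all tested genes), without RANKL replicate 1 or 2 they were 0 (0% of all tested genes, 12 and 15 members at an unadjusted p under 0.05), and without either WENRC library 1 (1.58% and 1.3% of all tested genes). The 3 comparisons share libraries in pairs and are not independent of each other. In the 6-library fit 46 of 138 members had an unadjusted p under 0.05 for RANKL over ENRI, beside 6061 of 16563 tested genes. For RANKL over WENRC there were 37 beside 4858, and for WENRC over ENRI 67 beside 5385. The unadjusted counts of the role groups below belong to this fit. For the other fits the unadjusted count over all tested genes was not taken.

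**Figure D3:**
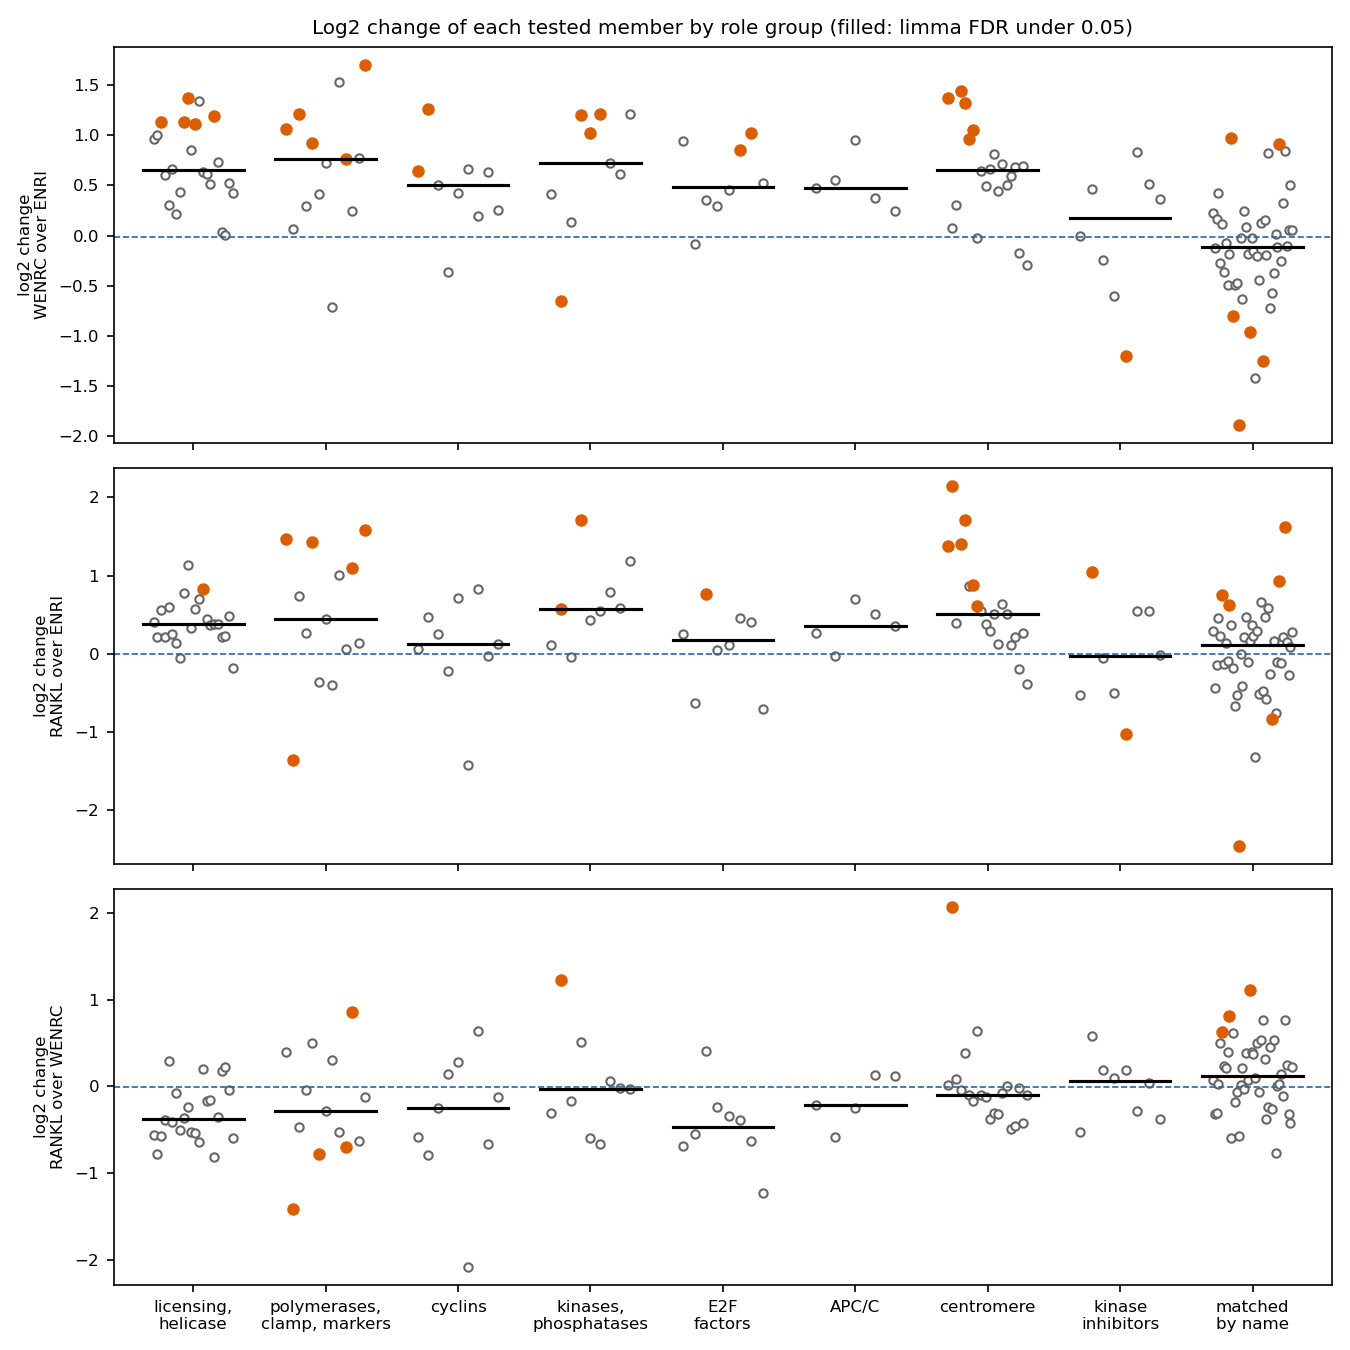
Log2 change of each tested member (points) in the 3 comparisons (panels), by role group (horizontal axis); filled points had an FDR under 0.05, black bars are group medians and the dashed line is the median of all tested genes. In the upper panel the medians of licensing (0.65), polymerase (0.76), kinase (0.72) and centromere (0.66) genes lie above 0 and that of genes matched by name (-0.12) below.

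Origin licensing and helicase genes (22, all tested) rose in 5 cases (22.7%, against 4.85% of all tested genes) between ENRI and WENRC and fell in none. These were Mcm2 (1.14 ± 0.24, FDR 0.0345), Mcm3 and Mcm5, which are helicase subunits, Orc1 (1.19 ± 0.28, FDR 0.0417), the largest origin recognition subunit, and Cdc7 (1.13 ± 0.22, FDR 0.0277), the kinase that fires loaded helicases; the number after ± is the standard error of the fit. With the mouse as a block Orc1 and Cdc7 passed, and Mcm2 (FDR 0.0558), Mcm3 (0.0596) and Mcm5 (0.0562) did not. All 22 fitted changes lay above 0, from 0.00 in Orc4 to 1.37 in Mcm3, with a median of 0.65. In 19 of the 22 (86.4%, against 29.3% of all tested genes) both WENRC libraries were above both ENRI libraries. Within each mouse 20 were higher in WENRC (90.9%, against 36.3% of all tested genes).

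Mcm3 stood at 8.13 and 8.36 in RANKL, 7.64 and 6.58 in ENRI and 8.54 and 8.43 in WENRC (log2; here and below the values of replicate or mouse 1 come first). Both ENRI libraries lay below all others, and the one of mouse 2 lay farthest down. The change from ENRI to WENRC was 1.37 ± 0.34 (FDR 0.0487), and 0.85 without ENRI of mouse 2. Mcm5, whose promoter is shown above with its E2F word, read 7.84 and 8.04 in RANKL, 7.72 and 7.0 in ENRI and 8.59 and 8.36 in WENRC. Its 3 cultures did not overlap, with WENRC highest, and its change from ENRI to WENRC was 1.11 ± 0.27 (FDR 0.0441). Mcm6, with its pair of E2F words, had a change of 1.35 ± 0.37 that did not pass (FDR 0.063), and one of 1.46 (adjusted p 0.0469) in the authors' deposited table.

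Among the remaining licensing genes Cdc6, the loader, had a change of 1.0 (FDR 0.0791) and Cdc45, a helicase activator, one of 0.96 (FDR 0.0535). From ENRI to RANKL the group had a median change of 0.38, and 1 of 22 passed, as a rise (4.55%, against 10.4% of all tested genes). That gene was Mcm7, at 9.16 and 9.39 in RANKL against 8.61 and 8.28 in ENRI and 9.08 and 9.08 in WENRC. Its rise from ENRI to RANKL was 0.83 ± 0.17 (FDR 0.0227), and missed 0.05 in the fit to 4 libraries (FDR 0.0595). The gene hosts Mir106b, Mir93 and Mir25, whose reads may be counted in it. Between RANKL and WENRC 0 of 22 passed in limma, 5 had an unadjusted p under 0.05 and 5 were lower in the authors' deposited table. The median was -0.37, and in 15 of 22 genes (68.2%, against 34.5% of all tested genes) both RANKL libraries lay below both WENRC libraries.

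The 13 polymerase subunits, the clamp and the proliferation markers gave 5 rises and 0 falls between ENRI and WENRC, and 4 rises and 1 fall between ENRI and RANKL. The rises were 38.5% and 30.8% of the 13, against 4.85% and 10.4% of all tested genes. The fall was 7.69%, against 10.5%. Mki67, the nuclear protein used as the standard marker of cycling cells, read 11.40 and 11.63 in RANKL, 10.28 and 9.81 in ENRI and 11.24 and 10.99 in WENRC. ENRI was lowest and RANKL highest with no overlap between cultures. Mki67 (chr7:142881471-142908062 in mm9) rose from ENRI to RANKL by 1.47 ± 0.21 (FDR 0.00848) and from ENRI to WENRC by 1.07 ± 0.21 (FDR 0.0263), and the change of RANKL over WENRC was 0.40 (FDR 0.261; 0.44 with an adjusted p of 0.0214 in the authors' deposited table). Top2a, the topoisomerase that untangles sister chromatids, read 10.45 and 10.59 in RANKL, 9.40 and 8.49 in ENRI and 10.76 and 10.53 in WENRC. Both ENRI libraries were below all 4 others, while RANKL and WENRC overlapped. Its changes over ENRI were 1.58 ± 0.30 in RANKL (FDR 0.0182) and 1.70 ± 0.30 in WENRC (FDR 0.0209), the largest rise among members in the latter comparison.

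Pcna (chr2:132075022-132078916, mm9), the clamp, was lowest in RANKL instead. It read 7.33 and 7.22 in RANKL, 8.13 and 9.14 in ENRI and 8.67 and 8.73 in WENRC. Both RANKL libraries lay below the 4 others, and the WENRC pair fell between the ENRI pair. Pcna fell from ENRI to RANKL by 1.36 ± 0.32 (log2, FDR 0.0334), or by 0.86 without ENRI of mouse 2, and was lower in RANKL than in WENRC by -1.42 ± 0.32 (FDR 0.0421). The change from ENRI to WENRC was 0.06 (FDR 0.919), upward in mouse 1 (0.53) and downward in mouse 2 (-0.41). In the authors' deposited table the 2 falls were -1.86 (adjusted p 0.00303) and -1.82 (adjusted p 1.79e-09).

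Single polymerase subunits were high in different cultures. Pold1, the catalytic subunit of polymerase delta, read 8.39 and 8.42 in RANKL, 7.01 and 6.96 in ENRI and 7.93 and 7.88 in WENRC. Its replicates lay within 0.06 of each other in each culture, and it rose over ENRI by 1.42 ± 0.14 in RANKL (FDR 0.0037) and 0.92 ± 0.14 in WENRC (FDR 0.0166); Mir7053 lies within the gene. Pola1, the catalytic subunit of the polymerase that makes primers, rose from ENRI to WENRC by 1.21 ± 0.23 (FDR 0.0246). Pole2, an accessory subunit of polymerase epsilon, read 7.97 and 8.13 in RANKL, 8.01 and 7.98 in ENRI and 8.78 and 8.74 in WENRC. It was high in WENRC alone, with changes of 0.76 over ENRI (FDR 0.0239) and -0.70 from WENRC to RANKL (FDR 0.0294).

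Pole3, a histone-fold subunit of polymerase epsilon, was high in RANKL alone, at 6.45 and 6.42 against 5.51 and 5.17 in ENRI and 5.62 and 5.54 in WENRC. It exceeded ENRI by 1.10 ± 0.20 (FDR 0.0166) and WENRC by 0.86 ± 0.20 (FDR 0.0461). Pold2, the second subunit of polymerase delta, was lower in RANKL than in WENRC (-0.78, FDR 0.0474), and its reads may include those of the overlapping gene Aebp1. Pole, the catalytic subunit of polymerase epsilon, had a change of 1.54 ± 0.43 from ENRI to WENRC that did not pass (FDR 0.0625), and one of 1.71 (adjusted p 0.0405) in the authors' deposited table. Pole read 8.07 and 6.72 in the ENRI pair.

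Cyclins are the regulatory partners of the kinases, and their levels change through the cycle. Of the 9 tested, 2 rose from ENRI to WENRC (22.2%, against 4.85% of all tested genes). Ccnb1, the mitotic cyclin, rose by 1.26 ± 0.25 (FDR 0.029) and Ccna2, the S and G2 cyclin, by 0.64 ± 0.15 (FDR 0.041). Ccnb1 read 6.94 and 7.26 in RANKL, 6.92 and 6.33 in ENRI and 7.99 and 7.78 in WENRC, so that WENRC stood above both others and RANKL above ENRI without overlap. Ccna2 read 8.69 and 8.49 in WENRC and between 7.95 and 8.05 in the 4 other libraries; Exosc9 overlaps it. In both RANKL comparisons 0 of 9 cyclins passed in limma, with 1 and 4 at an unadjusted p under 0.05, and by the authors' deposited table, 1 was lower against ENRI and 1 higher and 3 lower against WENRC.

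The D cyclins, which couple growth signals to Cdk4 and Cdk6, include 2 members on which the ENRI libraries lay more than 2 apart. Ccnd2 read 9.94 and 9.87 in RANKL, 12.45 and 10.19 in ENRI and 11.89 and 12.09 in WENRC. RANKL was the lowest culture and did not overlap the others, and the ENRI pair spanned the WENRC pair. Its RANKL minus WENRC change was -2.09 ± 0.66 in the 6-library fit and did not pass (FDR 0.0994), and it passed when only the 4 RANKL and WENRC libraries were fitted (FDR 5.28e-05). The authors' deposited table gives -2.39 (adjusted p 7.96e-56). The listed gene 9330179D12Rik overlaps Ccnd2, and their reads may be shared.

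Ccnd1 read 10.33 and 10.38 in RANKL, 10.86 and 8.43 in ENRI and 10.14 and 9.999 in WENRC. The ENRI library of mouse 1 was its highest and that of mouse 2 its lowest, and no change passed (FDR 0.518 for RANKL over ENRI, 0.836 over WENRC and 0.734 for WENRC over ENRI). Without ENRI of mouse 2 the changes turned to -0.51 for RANKL over ENRI and -0.79 for WENRC over ENRI, and without ENRI of mouse 1 they were 1.93 and 1.64. These fits hold 1 ENRI library, so that the spread between the ENRI pair does not enter them, and no FDR is given. Cdk6, the kinase partner of these cyclins, read 12.40 and 12.52 in RANKL, 12.47 and 10.08 in ENRI and 12.43 and 12.55 in WENRC. A single library, ENRI of mouse 2, stood apart, and its changes over ENRI of 1.19 in RANKL (FDR 0.275) and 1.22 in WENRC (FDR 0.289) did not pass. From ENRI to WENRC Ccnd1, Ccnd2 and Cdk6 changed by -0.72, -0.56 and -0.04 in mouse 1 and by 1.57, 1.89 and 2.47 in mouse 2.

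**Figure D4:**
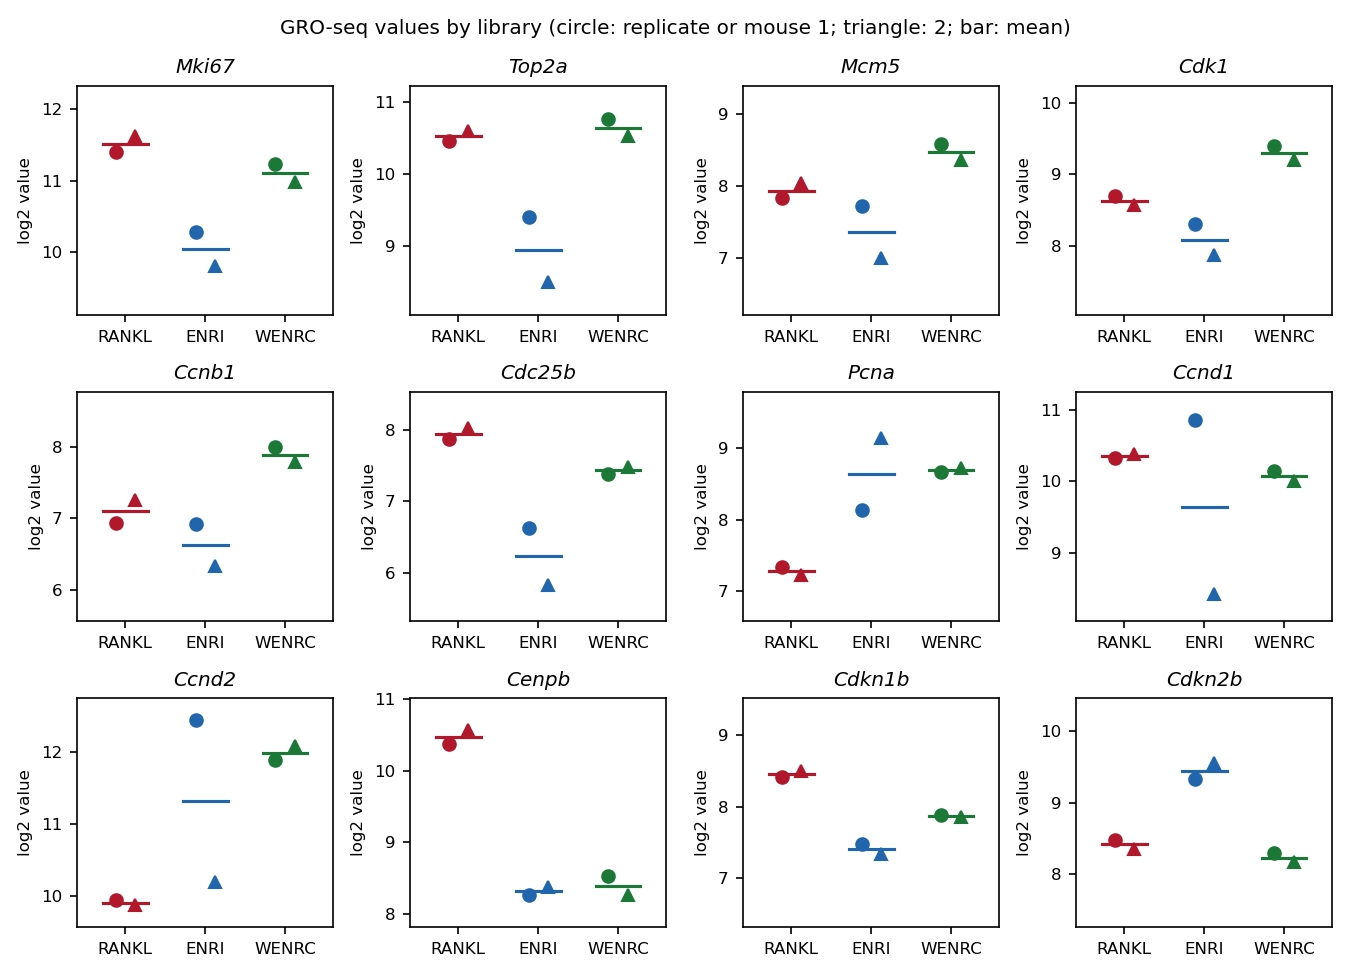
Log2 GRO-seq value (vertical axis, a span of 3.2 in every panel) of 12 members in the 2 libraries of each culture (circle for replicate or mouse 1, triangle for 2, bar for the mean). Mki67, Top2a, Mcm5, Cdk1, Ccnb1 and Cdc25b are lowest in ENRI, Pcna and Ccnd2 are lowest in RANKL, Cenpb and Cdkn1b are highest in RANKL, and the ENRI pair of Ccnd1 and Ccnd2 lies more than 2 apart.

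Cell cycle kinases and phosphatases (9 tested) gave 3 rises and 1 fall between ENRI and WENRC (33.3% and 11.1%, against 4.85% and 9.74% of all tested genes). Cdk1, the kinase that drives mitosis, read 8.69 and 8.57 in RANKL, 8.31 and 7.87 in ENRI and 9.39 and 9.20 in WENRC. The 3 cultures were in the order ENRI, RANKL, WENRC without overlap. Cdk1 rose by 1.21 ± 0.19 from ENRI to WENRC (FDR 0.0168), and its steps from ENRI to RANKL (0.54, FDR 0.0942) and between RANKL and WENRC (-0.67, FDR 0.0767) did not pass. In the authors' deposited table these steps were 0.64 (adjusted p 0.275) and -0.82 (adjusted p 0.00103). Cdc25b, a phosphatase that activates Cdk1, read 7.87 and 8.02 in RANKL, 6.63 and 5.83 in ENRI and 7.38 and 7.49 in WENRC. It was highest in RANKL with no overlap, and rose over ENRI by 1.71 ± 0.28 in RANKL (FDR 0.0127) and by 1.20 ± 0.28 in WENRC (FDR 0.0425). The related Cdc25c rose from ENRI to WENRC by 1.03 (FDR 0.0375), whereas Cdc25a, which acts at G1/S, read 9.41 to 9.67 in all 6 libraries.

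Cdc14b, a phosphatase that opposes cyclin-dependent kinases, had yet another order. Its values were 10.70 and 10.74 in RANKL, 10.06 and 10.24 in ENRI and 9.53 and 9.45 in WENRC. RANKL was highest and WENRC lowest, with no overlap, and all 3 differences passed: 0.57 for RANKL over ENRI (FDR 0.0326), 1.23 for RANKL over WENRC (FDR 0.00606) and -0.66 for WENRC over ENRI (FDR 0.0293). The differences from ENRI missed 0.05 in the fits to 4 libraries (FDR 0.068 for RANKL and 0.115 for WENRC) and, as adjusted p, in the authors' deposited table (0.0832 and 0.0757), and that of WENRC also with the mouse as a block (FDR 0.0618). The listed gene 1810034E14Rik overlaps Cdc14b. Cdk2 and Cdk4, the S phase and G1 kinases, had WENRC over ENRI changes of 0.72 (FDR 0.154) and 0.61 (FDR 0.0579).

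E2F factors (8, all tested) gave 2 rises between ENRI and WENRC (25%, against 4.85% of all tested genes), both in repressor members. E2f7 read 7.59 and 7.53 in RANKL, 7.39 and 6.94 in ENRI and 8.22 and 8.16 in WENRC, and rose by 1.03 ± 0.20 (FDR 0.0257). E2f6 rose by 0.85 ± 0.20 (FDR 0.0435), and E2f1, an activator, changed by 0.94 ± 0.24 (FDR 0.0514). In all of these genes WENRC was the highest culture without overlap. From ENRI to RANKL the activator E2f3 rose, by 0.76 ± 0.18 (FDR 0.0349). E2f8, a repressor, read 7.0 and 7.23 in RANKL, 7.38 and 8.26 in ENRI and 8.48 and 8.21 in WENRC. RANKL was its lowest culture, with a RANKL minus WENRC change of -1.23 ± 0.31 (FDR 0.0541), and -1.65 (adjusted p 2.04e-06) in the authors' deposited table. In RANKL against WENRC 0 of 8 passed in limma, 3 had an unadjusted p under 0.05 and 1 was higher and 3 lower in the authors' deposited table. E2f2 and E2f4 did not pass in any comparison, and E2f5 had a WENRC over ENRI change of 0.45 (FDR 0.148).

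Subunits and the activator of the anaphase promoting complex (Cdc16, Cdc20, Cdc23, Cdc26 and Cdc27), the ligase that ends mitosis, gave 0 calls in limma in each comparison. At an unadjusted p under 0.05 there were 1 for RANKL over ENRI, 0 for RANKL over WENRC and 2 for WENRC over ENRI, and the authors' deposited table called 0, 1 and 0. All 5 had both WENRC libraries above both ENRI libraries, which was so for 29.3% of all tested genes. Their changes ran from 0.24 in Cdc27 to 0.96 in Cdc23. The mitotic gene Kif20a overlaps Cdc23, and their reads may be shared.

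Centromere proteins (20, all tested) rose in 6 cases from ENRI to RANKL and in 5 from ENRI to WENRC, with no falls. These rises were 30% and 25% of the 20, against 10.4% and 4.85% of all tested genes. Cenpa, the histone that marks the centromere, read 8.01 and 8.16 in RANKL, 6.96 and 6.45 in ENRI and 8.33 and 7.82 in WENRC. RANKL and WENRC overlapped and both lay above ENRI, with changes of 1.38 ± 0.26 (FDR 0.0176) and 1.37 ± 0.26 (FDR 0.0246). Cenpe, a mitotic motor, rose by 1.40 (FDR 0.018) and 1.44 (FDR 0.0232), and Cenpf, a kinetochore protein made in G2, by 1.71 (FDR 0.0176) and 1.32 (FDR 0.045; 0.83 without ENRI of mouse 2). Cenpi rose by 0.88 (FDR 0.0482) and 1.05 (FDR 0.0387) and Cenph from ENRI to WENRC by 0.97 (FDR 0.0499). The median change over ENRI was 0.51 in RANKL and 0.66 in WENRC.

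Cenpb, which binds a repeated DNA motif in centromeres, had an order of its own. It read 10.37 and 10.56 in RANKL, 8.27 and 8.38 in ENRI and 8.53 and 8.27 in WENRC. RANKL stood about 2 above both other cultures, which overlapped. The rises were 2.14 ± 0.16 over ENRI (FDR 0.00205), the largest among members in that comparison, and 2.07 ± 0.16 over WENRC (FDR 0.00218). The gene lies at chr2:131003025-131005803 (mm9), next to Cdc25b at chr2:131012684-131024247. Cenpj, a centriole protein, rose from ENRI to RANKL by 0.61 (FDR 0.0439) and had a change of 0.64 over WENRC that did not pass (FDR 0.0538). In the authors' deposited table the adjusted p was 0.148 over ENRI and 0.0309 over WENRC.

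Pola1 and Cenpi lie on the X chromosome, and the 2 mice differed in sex-linked genes. Xist read 4.52 and 5.42 in the ENRI and WENRC libraries of mouse 1, 10.90 and 11.60 in those of mouse 2 and 11.94 and 12.18 in RANKL, and the Y-linked Ddx3y read 8.50 and 8.29 in mouse 1 and 3.28 to 3.60 in the other 4 libraries. Within each mouse, where these genes are alike, Pola1 changed from ENRI to WENRC by 0.93 and 1.49 and Cenpi by 0.89 and 1.22.

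The 8 kinase inhibitors did not move together. Cdkn1b (p27), which holds Cdk2 inactive in resting cells, read 8.41 and 8.49 in RANKL, 7.47 and 7.34 in ENRI and 7.88 and 7.85 in WENRC. The cultures did not overlap, and the rise from ENRI to RANKL was 1.05 ± 0.15 (FDR 0.00848), with differences of 0.59 from WENRC (FDR 0.0554) and 0.46 between WENRC and ENRI (FDR 0.0886). The authors' deposited table gives the difference from WENRC as 0.74 (adjusted p 0.0199). Cdkn2b (p15), an inhibitor of Cdk4 and Cdk6, read 8.48 and 8.36 in RANKL, 9.33 and 9.56 in ENRI and 8.30 and 8.17 in WENRC. ENRI was highest, and RANKL and WENRC did not overlap it. The gene was lower than in ENRI by -1.02 ± 0.15 in RANKL (FDR 0.00993) and -1.21 ± 0.15 in WENRC (FDR 0.0114). Gm12610 overlaps it.

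The other inhibitors did not pass in limma in any comparison. Cdkn1a (p21), the p53 target, read 10.09 and 10.02 in RANKL, 10.75 and 10.42 in ENRI and 10.25 and 10.91 in WENRC. Cdkn2a, which encodes p16 and p19Arf, read 6.02 and 6.21, 7.16 and 6.08, and 5.77 and 6.27 in the same order, with ENRI of mouse 1 alone above the rest. Cdkn2c changed from ENRI to WENRC by 0.83 (FDR 0.0502), and Cdkn1c lay between 4.92 and 5.48 in all libraries. Against WENRC, RANKL gave 0 calls of 8 in limma, 1 at an unadjusted p under 0.05, and 1 higher (Cdkn1b) and 1 lower (Cdkn1a, adjusted p 0.0206) in the authors' deposited table.

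Genes matched only by name moved in both directions. Cdc42ep5, an effector of the small GTPase Cdc42, read 7.82 and 7.99 in RANKL, 10.23 and 10.49 in ENRI and 8.66 and 8.28 in WENRC. ENRI stood above the rest without overlap, and Cdc42ep5 was lower by -2.46 ± 0.19 in RANKL (FDR 0.00215) and -1.89 ± 0.19 in WENRC (FDR 0.0084). Cdk5rap2, a centrosome protein, rose over ENRI by 0.93 in RANKL (FDR 0.00816) and 0.91 in WENRC (FDR 0.0139). Cdk8, the Mediator kinase, read 15.35 and 15.58 in RANKL, 14.23 and 13.46 in ENRI and 14.78 and 14.60 in WENRC, and rose from ENRI to RANKL by 1.62 ± 0.33 (FDR 0.023).

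Others of this set were Cdk11b, a kinase of transcription and splicing, which was lower in WENRC than in RANKL (1.12 for RANKL over WENRC, FDR 0.0151) and than in ENRI (-0.96, FDR 0.0237), and Cdk18, which was lower in WENRC than in ENRI (-1.25, FDR 0.0209). Cdc42ep2 fell from ENRI to WENRC by 0.81 (FDR 0.0415) and Cdc42ep1 rose by 0.97 (FDR 0.0353). Cdc42bpg, a kinase bound by Cdc42, was higher in RANKL than in ENRI (0.62, FDR 0.0214) and in WENRC (0.81, FDR 0.0141), as was the splicing factor Cdc40 (0.75, FDR 0.0208, and 0.63, FDR 0.0461). Cdk3-ps, whose symbol marks a pseudogene and whose reads may come from a similar gene, was lower in RANKL than in ENRI (-0.84, FDR 0.0362).

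A list of 82 other genes of the pathway, all tested, was read beside the members: nucleotide supply, fork proteins, checkpoint kinases, mitotic kinases, kinetochore and condensin subunits, and the Rb and MuvB regulators. From ENRI to WENRC 46 rose and 2 fell (58.5% called against 14.6% of all tested genes, median 0.89). From ENRI to RANKL 26 rose and 0 fell (31.7% against 20.9%, median 0.56), and from WENRC to RANKL 1 rose and 4 fell (6.10% against 12.1%, median -0.32). As with the members, the 4 ENRI and WENRC libraries alone gave 0 calls in limma (57 higher and 3 lower at an unadjusted p under 0.05), against 36 in the authors' deposited table. The block by mouse gave 0 in the same 4 libraries and 31 in all 6 (0.749% and 9.09% of all tested genes). Of the 2 that fell, Rbl2 (p130), the pocket protein of resting cells, changed by -0.63 (FDR 0.0416), and Tfdp2, a partner of E2F factors, by -0.71 (FDR 0.0345).

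Several of these genes rose over ENRI in both other cultures. Bub1b, a spindle checkpoint kinase, rose by 1.14 in RANKL (FDR 0.00724) and 1.41 in WENRC (FDR 0.00934). Kif11, the spindle motor, rose by 1.30 (FDR 0.0056) and 1.35 (FDR 0.0103), and Mybl2, a transcription factor of cycling cells, by 1.44 (FDR 0.00989) and 1.37 (FDR 0.0166). Incenp, of the chromosomal passenger complex, read 10.27 and 10.50 in RANKL, 8.58 and 7.65 in ENRI and 9.61 and 9.57 in WENRC, and rose by 2.27 (FDR 0.00724) and 1.48 (FDR 0.03).

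In RANKL against WENRC the 5 genes called were Rrm2, Rfc4, Rpa2, Ncaph and Spc25. Rrm2, the regulated subunit of ribonucleotide reductase, read 6.94 and 6.91 in RANKL, 7.40 and 6.66 in ENRI and 8.46 and 8.19 in WENRC. It was high in WENRC alone, by 1.29 over ENRI (FDR 0.0323), and was lower in RANKL than in WENRC by -1.39 (FDR 0.0277). Rfc4, a subunit of the clamp loader, had changes of -1.03 for RANKL over WENRC (FDR 0.0456) and 1.10 for WENRC over ENRI (FDR 0.0353). Spc25, a kinetochore subunit, was the gene higher in RANKL than in WENRC (1.13, FDR 0.0198).

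H3K27me3 was compared by the authors between RANKL and WENRC, and each deposited region is one where their peak caller found more tags in one culture than in the other, at a fold of at least 2. Their tables hold 35798 RANKL-higher and 13607 WENRC-higher regions, with pooled RANKL at a depth of 32.7 M tags and WENRC at 36.3 M (M, mega), and the differences have no replicate check. A RANKL-higher region lay within 5 kb of the start site of 14 of the 141 members (9.93%), a place it took in 19.1% of all listed genes. A WENRC-higher region lay there in 4 members (2.84%), against 5.44% of all listed genes.

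Ccnd2 had the region of lowest p near a member. It spans chr6:127097961-127103583 (mm9), covers the start of the gene (chr6:127075727-127101066, minus strand) and is annotated as exon, with 344 tags in RANKL and 75.6 scaled tags in WENRC. The authors' fold is 4.55 and their p 4.7e-112. Ccnd2 is also the member with the most negative RANKL minus WENRC change in GRO-seq value, given above, which did not pass in the 6-library fit. E2f8 had 2 regions, of 123 against 40.5 tags (chr7:56137396-56139814, fold 3.04) and 20 against 5.4 tags.

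At the inhibitor genes the mark was higher in RANKL over Cdkn2a, Cdkn1a and Cdkn1c. The widest region, chr4:88934352-88941947 in an intron of Cdkn2a, held 501 tags in RANKL and 192.7 in WENRC (fold 2.6), and 3 smaller ones lay within 5 kb of the start. Cdkn1c had 3 regions of 18 to 54 tags in RANKL and Cdkn1a 1 of 24. E2f6, Pola1, Cenpi, Cdk16 and Cdc20b had 1 region each, of 18 to 43 RANKL tags. Pola1, Cenpi and Cdk16 lie on the X chromosome, which held 20.8% of all RANKL-higher and 10.6% of all WENRC-higher regions. The labels give no mouse or sex for the H3K27me3 libraries, so that sex and culture cannot be told apart at these X-linked regions. On the autosomes alone there were 11 members (7.8%, against 17.1% of all listed genes). Cdk14 and Cdk5r2 had 2 regions each, Cdc42ep1 3, with folds up to 6.29, and Cdc42ep3 4.

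The WENRC-higher regions near members were small, with 4 to 11 RANKL tags and 18 to 32.4 WENRC tags, at Cdc7, Cdc42, Cdc42bpa and Cdk14. Cdk14 thus had regions of both directions within 5 kb of its annotated start sites. At a fold of at least 4 the counts were 4 members RANKL-higher (2.84%, against 3.04% of all listed genes) and 2 WENRC-higher (1.42%, against 1.37%), so that the lower share of members was not seen there. Within 1 kb of a start site they were 6 (4.26%, against 10.5%) and 0 (against 1.24%).

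**Figure D5:**
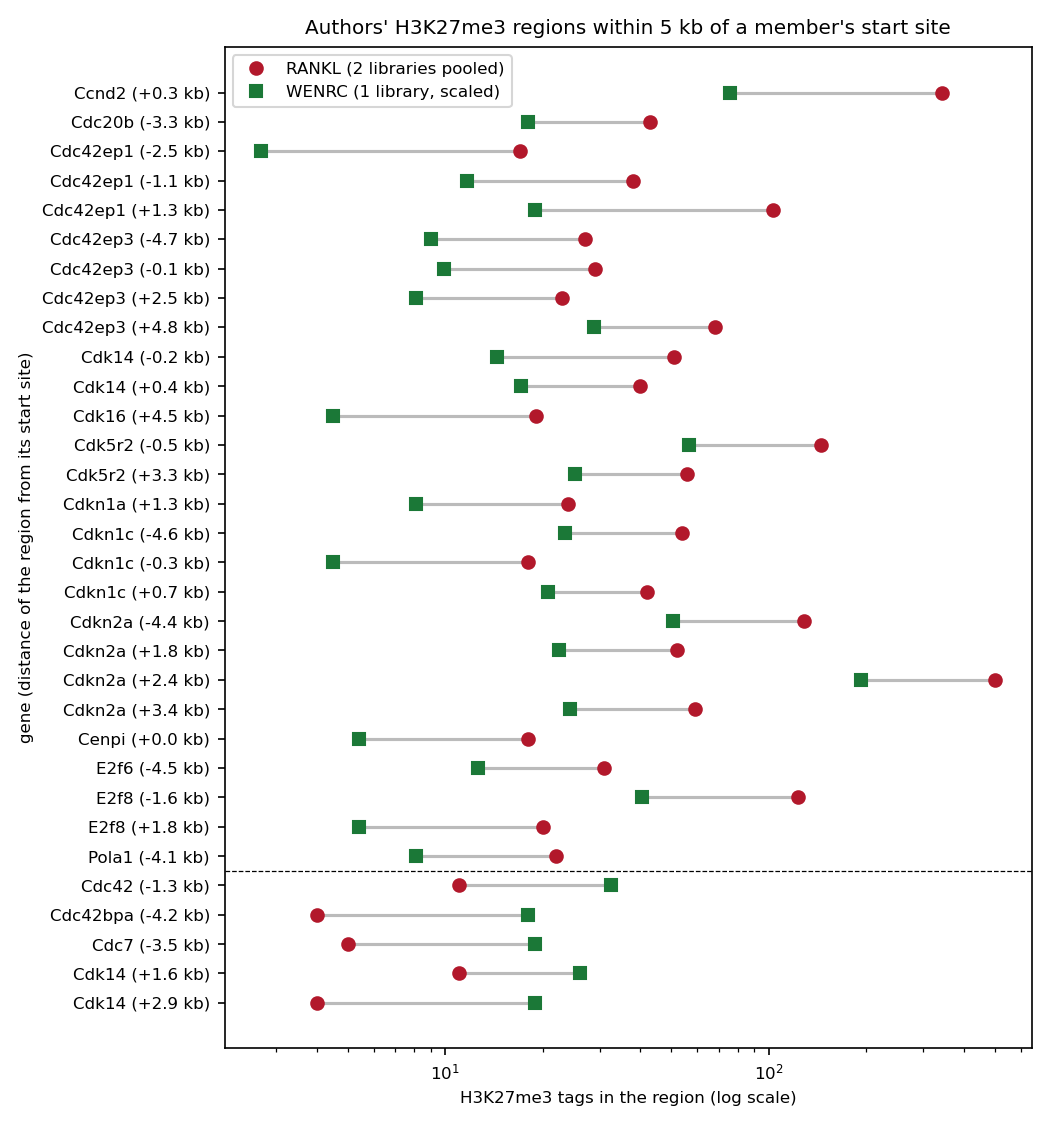
H3K27me3 tags (horizontal log axis) in RANKL (circles, 2 libraries pooled) and WENRC (squares, 1 library, scaled by the authors) for each deposited region within 5 kb of a member's start site; labels give the gene and the distance of the region from the start, and regions above the dashed line are RANKL-higher. Ccnd2 (344 against 75.6) and Cdkn2a (501 against 192.7) have the most RANKL tags.

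Of the 13 tested members with a RANKL-higher region near the start, 10 (76.9%) had a GRO-seq change below 0 from WENRC to RANKL, against 58.7% of all tested members and 50.7% of all tested genes. None of the 13 passed in the 6-library limma fit (12.1% of all tested genes did). An unadjusted p under 0.05 was found in 3 of the 13, beside 4858 of 16563 tested genes. The fit to the 4 libraries called 4 (31.4% of all tested genes), and 5 passed in the authors' deposited table (27.8%), shares of the 13 that lie near those of all tested genes. The 4 called in the 4-library fit were Ccnd2 (-2.09), E2f8 (-1.23, FDR 0.00159), Cdc42ep1 (-0.60, FDR 0.00794) and Pola1 (-0.47, FDR 0.0146). The inhibitor genes Cdkn2a and Cdkn1c had changes of 0.09 (FDR 0.909) and 0.19 (FDR 0.621) there in the 6-library fit. Cdkn1c lay at low levels in all libraries. Of the 4 members with a WENRC-higher region, 1 had a change below 0, which was Cdc7 (-0.57, FDR 0.156).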

How the data were processed

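Per the file headers, the authors summed GRO-seq reads over whole RefSeq genes (mm9) with HOMER and deposited normalized log2 values; the transform is not named, and strand handling and aligner settings are not given in the sources used here. The submitters' processing notes name Bowtie2 2.3.4.1, HOMER and DESeq2. The authors' deposited log2 fold changes, p-values and adjusted p-values were turned to first minus second culture. Deposited H3K27me3 tables hold RANKL tag counts, WENRC tags as a scaled signal, a fold (ratio of tags) and a p-value per region.

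Genes with at least 2 libraries at 10 or more on the linear scale were fitted with limma 3.58.1 (R 4.3.3, trend). The fit had 3 culture means, 6 libraries and 3 residual degrees of freedom, and followed tests on simulated data. No label says that RANKL replicates came from separate animals. Mouse numbers pair ENRI with WENRC (correlation of replicate deviations 0.41). The genes named were a fixed set of core genes, the 12 called members of largest change per comparison and members with a region within 5 kb; others were added after their values were seen. The members and lists were chosen with earlier results of these data known. Alternatives were other scalings, filters, fits and left-out libraries.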

Additional observations from a re-analysis of the deposited data

How the results depend on the processing

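With 2 libraries a culture and 3 residual degrees of freedom, counts of calls moved more than the changes themselves. Against main counts of 23, 9 and 30 members (RANKL over ENRI, RANKL over WENRC, WENRC over ENRI), fits to only the 4 libraries compared gave 14, 46 and 0 (11.6%, 31.4% and 0% of all tested genes); for the 82 other pathway genes, 9, 24 and 0 against 26, 5 and 48. For RANKL over WENRC, array weights per culture gave 42 members and 22 pathway genes (30.9% of all tested genes, main 12.1%), the authors' deposited values 40 and 21 (27.8%), upper-quartile recentring 9 pathway genes and no filter 3. Recentring gave 49 members for WENRC over ENRI (18.4%). Leaving out 1 library at a time gave 0 to 71, 0 to 46 and 0 to 84 members (the highest without an ENRI library), and 0 to 56, 0 to 24 and 0 to 65 pathway genes. The median change of members ran from 0.123 to 0.47, -0.136 to -0.0735 and 0.217 to 0.593 in these fits. For RANKL over WENRC (main -0.0962) it was -0.179 under quantile normalization, -0.211 under recentring and -0.223 in the role groups alone. Ccnd1 reversed without ENRI of mouse 2, to -0.505 for RANKL over ENRI and -0.79 for WENRC over ENRI, and was 1.93 and 1.64 without ENRI of mouse 1, in fits with 1 ENRI library. The cause was not tested.

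The mouse as a replicate block pairs ENRI with WENRC. In their 4 libraries it gave 0 members and 0 pathway genes (0.749% of all tested genes), and in 6 libraries 20 and 31 (9.09%). For RANKL against the others the samples share only a number (correlations -0.20 and -0.32). There the replicate block gave 19 and 5 members and 20 and 2 pathway genes, when 16.4% and 8.85% of all tested genes were called.

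Members with a RANKL-higher region numbered 4 at a fold of at least 4, 6 within 1 kb and 38 at any distance. Those with a WENRC-higher region numbered 2, 0 and 31. At any distance these were 27% of the members against 33.7% of all listed genes, and 22% against 24%. The 104 tested members overlapping no other listed gene gave 19, 7 and 25 calls. Of all tested genes, overlapping or not, 20.9%, 12.1% and 14.6% were called. No depth could be read for GRO-seq, and genes matched by name kept no stable median for RANKL over WENRC (0.12, -0.03 under quantile normalization).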
